A study of Homo sapiens with 94 samples.

Results

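K-975 at 30 mg/kg, the lowest dose given, was compared with vehicle in the 3-6 h study of NCI-H226 xenografts. The dose and cage group in the labels define the 20 tumors: the 10 tumors of cage groups 8 and 9 (30 mg/kg) and the 10 of cage groups 2 and 3 (vehicle), out of 45 tumors in that study and 94 in the series. NCI-H226 is a human pleural mesothelioma line that carries an NF2 deletion, and all tumors grew from it under the skin of female CB17/lcr-Prkdc scid/lcrIcoCrl mice, which lack T and B cells. Each tumor came from its own mouse, and all mice received a single oral administration or none. K-975 was given in 10 mL/kg at 30 mg/kg, whereas vehicle (ethanol, Solutol and glucose solution) was given in 20 mL/kg, so that dose and dosing volume cannot be told apart. The labels give tumors at 3 h and at 6 h but not which cage group was taken at which time, so the time points were read together. The 5 untreated tumors of cage group 1 and the 10 tumors each at 100 mg/kg (in 10 mL/kg) and 200 mg/kg (in 20 mL/kg) were used where named.

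TEAD transcription factors bind DNA but need a co-activator, YAP1 or its paralog WWTR1 (TAZ), to switch their targets on. The Hippo kinases STK3/4 and LATS1/2 hold YAP1 and TAZ in the cytoplasm by phosphorylating them, and NF2 (merlin) helps to activate these kinases, which is why loss of NF2 in mesothelioma leaves YAP1 in the nucleus. K-975 binds covalently in the palmitate pocket of TEAD proteins and is designed to block TEAD-dependent transcription. CCN1 (CYR61) and CCN2 (CTGF), both secreted matrix proteins, are the classic readouts of that transcription.

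TEAD proteins recognise the core CATTCC, which reads GGAATG on the other strand. To show what such a target looks like, the promoters of the YAP/TAZ-TEAD targets that hold the core at least 2 times are printed here, from RefSeq (GRCh38.p14), as 250 bases before and 50 after the transcription start, 5′ to 3′ on the strand of the gene, with each core in capitals. The CCN2 promoter is chr6:131951323-131951622 (minus strand), that of ANKRD1, a nuclear muscle ankyrin repeat protein, is chr10:90921038-90921337 (minus strand), and that of NUAK2, an AMPK-related kinase, is chr1:205321696-205321995 (minus strand).
CCN2: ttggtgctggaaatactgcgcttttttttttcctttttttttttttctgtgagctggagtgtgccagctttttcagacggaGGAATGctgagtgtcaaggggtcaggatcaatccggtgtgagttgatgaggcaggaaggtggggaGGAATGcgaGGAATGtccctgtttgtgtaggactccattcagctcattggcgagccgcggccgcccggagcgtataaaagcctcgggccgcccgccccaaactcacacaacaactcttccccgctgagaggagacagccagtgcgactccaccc
ANKRD1: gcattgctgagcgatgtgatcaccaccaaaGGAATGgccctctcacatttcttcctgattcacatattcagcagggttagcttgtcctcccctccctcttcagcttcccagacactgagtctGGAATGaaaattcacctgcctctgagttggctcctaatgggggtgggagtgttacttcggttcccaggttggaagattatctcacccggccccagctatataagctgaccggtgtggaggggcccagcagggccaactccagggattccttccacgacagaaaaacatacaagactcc
NUAK2: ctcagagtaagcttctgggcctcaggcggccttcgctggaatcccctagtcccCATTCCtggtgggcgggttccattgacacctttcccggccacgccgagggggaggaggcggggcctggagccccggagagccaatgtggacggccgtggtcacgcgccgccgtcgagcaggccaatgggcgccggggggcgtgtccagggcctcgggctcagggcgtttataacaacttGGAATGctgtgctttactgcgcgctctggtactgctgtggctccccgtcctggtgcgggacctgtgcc
CCN2 holds 3 cores, 2 of them close together at -104 and -95 bases from the start, and ANKRD1 and NUAK2 hold 2 each. Of the 22 targets listed, 16 genes with 18 promoters were matched, and 9 of these promoters (50%) held at least 1 core, beside 4928 of 35116 (14.0%) of all promoters in the table. At least 3 cores were present in 44 promoters (0.125%). A match of letters is a description and does not show that TEAD binds there. The CCN1 promoter was not matched.

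Levels were deposited as FPKM (fragments per kilobase of transcript scaled to the mapped fragments of each library). Between 11420 and 11593 genes were at 1 FPKM or more in vehicle tumors and between 11414 and 11587 at 30 mg/kg, while depth, judged from the lowest values, ran from 0.654 to 1.15 and from 0.732 to 1.14 of the typical library. Fold changes are differences of log2(FPKM + 1) from a limma fit to all 45 tumors of the study, and therefore understate the change of genes at low levels. A gene was called when its p-value, adjusted over the 12528 genes tested, was under 0.05. Of 15 mesothelial markers 15 were detected, with MSLN (mesothelin) at 197 to 295 FPKM in vehicle tumors and 212 to 333 at 30 mg/kg, and NF2 did not exceed 0.244 FPKM in any of the 20 tumors. Of the endothelial markers PECAM1, CLDN5 and EMCN were listed at 0 in all 20 tumors, whereas KDR averaged 75.7 FPKM with vehicle. Of the leukocyte markers CD3E, AIF1 and TYROBP were listed at 0, whereas CD68 averaged 131 FPKM with vehicle. A value listed at 0 need not mean that a cell type was absent, since the fibroblast collagen gene COL1A2 was at 0 throughout and COL1A1 averaged 562 FPKM.

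One gene passed the threshold between 30 mg/kg and vehicle, out of 12528 (0.00798%). The count was 16 (0.128%) against vehicle cage group 3 alone and 0 against vehicle cage group 2 alone or the untreated tumors. At an unadjusted p under 0.05, 322 genes (2.57%) were lower and 539 (4.3%) higher at 30 mg/kg, and over all genes tested 46.2% had a fold change below 0, with a median log2 fold change of 0.01. The median 95% interval of a gene extended 0.257 on the log2 scale to either side. For 12280 genes (98.0%) the interval lay within 1 log2 unit of 0, and for 9240 (73.8%) within 0.5. With 1 coefficient per cage group, intervals and p-values rest on the spread of tumors within cage groups. They leave out the variation between cage groups, so they can be too narrow for the dose comparison. No YAP/TAZ-TEAD target and no gene of the Hippo pathway was called.

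CCN1 (chr1:85580761-85583962, plus strand) was the target with the lowest p. In vehicle tumors it ranged from 148 to 271 FPKM with a median of 204, and at 30 mg/kg from 137 to 193 with a median of 155. All 10 tumors at 30 mg/kg lay below the vehicle median and 4 below the lowest vehicle tumor, so the groups overlapped. The mean was 155 ± 15.5 FPKM against 205 ± 39.9 (SD, n = 10 each), a ratio of 0.757. The log2 fold change was -0.38 (95% interval -0.60 to -0.16), with an unadjusted p of 0.00112 and an adjusted p of 0.451 in limma. It was similar in both cage groups, at -0.35 in cage group 8 and -0.41 in cage group 9, each against all vehicle tumors, but -0.26 (-0.53 to 0.0093) against vehicle cage group 2 and -0.50 (-0.77 to -0.23) against vehicle cage group 3. Against the 5 untreated tumors, which ranged from 193 to 283 FPKM, it was -0.58 (-0.84 to -0.31), also short of the threshold.

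CCN2 was expressed at a much lower level. It ranged from 7.70 to 12.6 FPKM in vehicle tumors (median 9.63) and from 4.35 to 11.5 at 30 mg/kg (median 7.80), and 8 of 10 treated tumors lay below the vehicle median and 4 below the lowest vehicle tumor. The log2 fold change was -0.31 (-0.60 to -0.02) with a limma adjusted p of 0.701. CCN2 values of the vehicle cage groups were alike, at 9.74 ± 0.731 and 9.87 ± 2.11 FPKM (SD, n = 5 each).

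**Figure D1:**
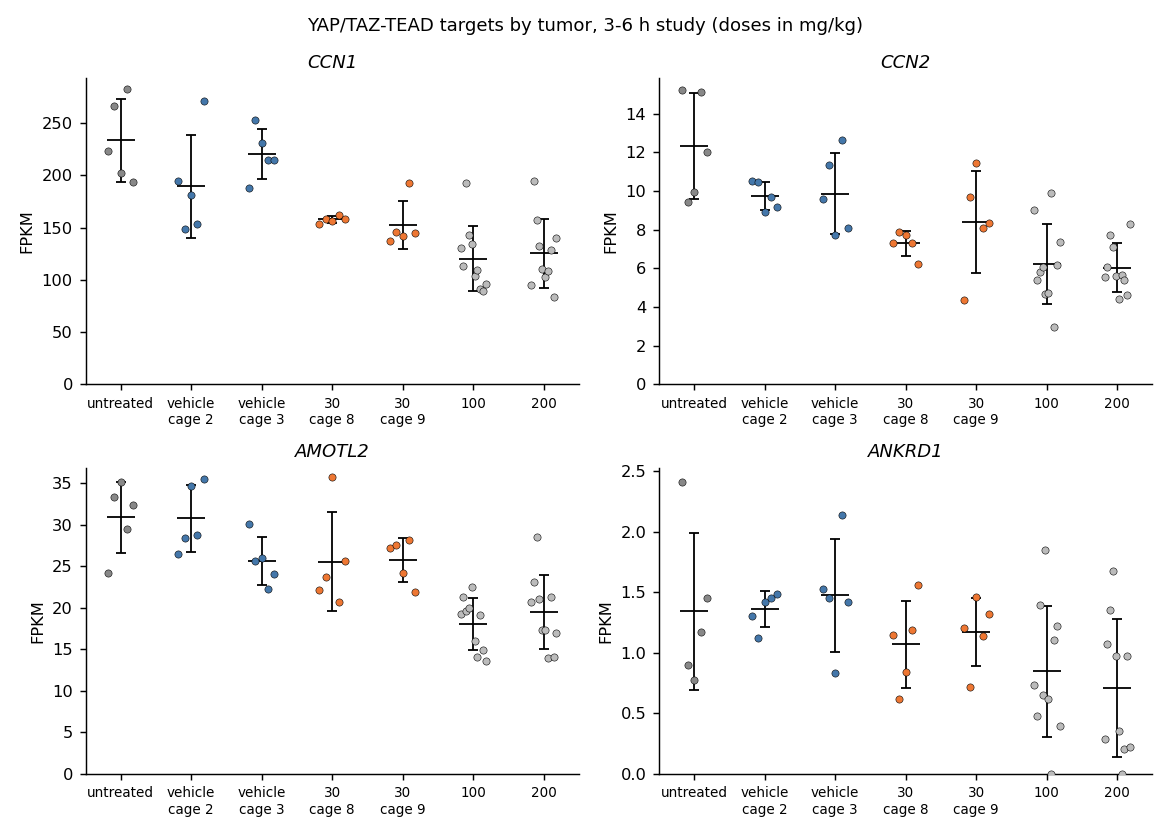
FPKM of CCN1, CCN2, AMOTL2 and ANKRD1 (y axis, from 0) in every tumor of the 3-6 h study, with groups on the x axis (vehicle and 30 mg/kg split by cage group), 1 point per tumor, and bars for mean ± SD. CCN1 at 30 mg/kg sits between 137 and 193 FPKM, below the vehicle median of 204 in all 10 tumors, and overlaps the lower vehicle tumors.

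ANKRD1 was near the lower limit of the filter. It ranged from 0.830 to 2.14 FPKM in vehicle tumors (median 1.44) and from 0.621 to 1.56 at 30 mg/kg (median 1.17), with a log2 fold change of -0.19 (-0.50 to 0.12). AMOTL2, an angiomotin-family scaffold that binds YAP1 and is itself a TEAD target, had a range of 22.3 to 35.6 FPKM with vehicle (median 27.5) and 20.6 to 35.8 at 30 mg/kg (median 24.9). Its log2 fold change was -0.13 (-0.32 to 0.05), and the ranges of the groups coincided nearly throughout.

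Among the other targets, DOCK5, an exchange factor for Rac, ranged from 133 to 193 FPKM with vehicle (median 156) and from 118 to 174 at 30 mg/kg (median 138). Of the 10 treated tumors 9 were below the vehicle median, and the log2 fold change was -0.21 (-0.34 to -0.09) with a limma adjusted p of 0.451. Over other controls, cage groups and settings it ran from -0.39 to -0.03. DOCK5 was at 134 to 174 FPKM in cage group 8 and 118 to 144 in cage group 9. In vehicle cage groups 2 and 3 it was at 133 to 167 and 152 to 193 FPKM. IGFBP3, a secreted binding protein of insulin-like growth factors, had the fold change farthest below 0, at -0.63 (-1.12 to -0.14, adjusted p = 0.603 in limma). The cage groups of each arm differed in their means. Vehicle cage group 2 averaged 60.8 ± 16.3 FPKM and vehicle cage group 3 127 ± 78.1, whereas cage group 8 averaged 76.5 ± 22.6 and cage group 9 38.3 ± 10.3 (SD, n = 5 each). F3 (tissue factor), with a log2 fold change of -0.48 (-0.97 to 0.01), likewise had its highest cage mean in vehicle cage group 3 (80.0 ± 27.0 FPKM), beside 51.0 ± 28.0 in vehicle cage group 2.

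In all, 16 of the 22 targets had a fold change below 0, with a median of -0.08, beside 46.2% and 0.01 for all genes. CCN1, CCN2, DOCK5 and IGFBP3 had an unadjusted p under 0.05, all lower, and none of the 22 was higher at that level. CRIM1 (0.02, interval -0.08 to 0.12), MYOF (0.02, -0.05 to 0.10) and the receptor tyrosine kinase AXL (-0.08, -0.24 to 0.08) had narrow intervals around 0. PTPN14, a phosphatase that restrains YAP1, had the highest value, 0.20 (-0.03 to 0.42). Against vehicle cage group 2 alone 13 of 22 targets were below 0 (median -0.02), against vehicle cage group 3 alone 16 (median -0.17), and against the untreated tumors 18 (median -0.10).

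**Figure D2:**
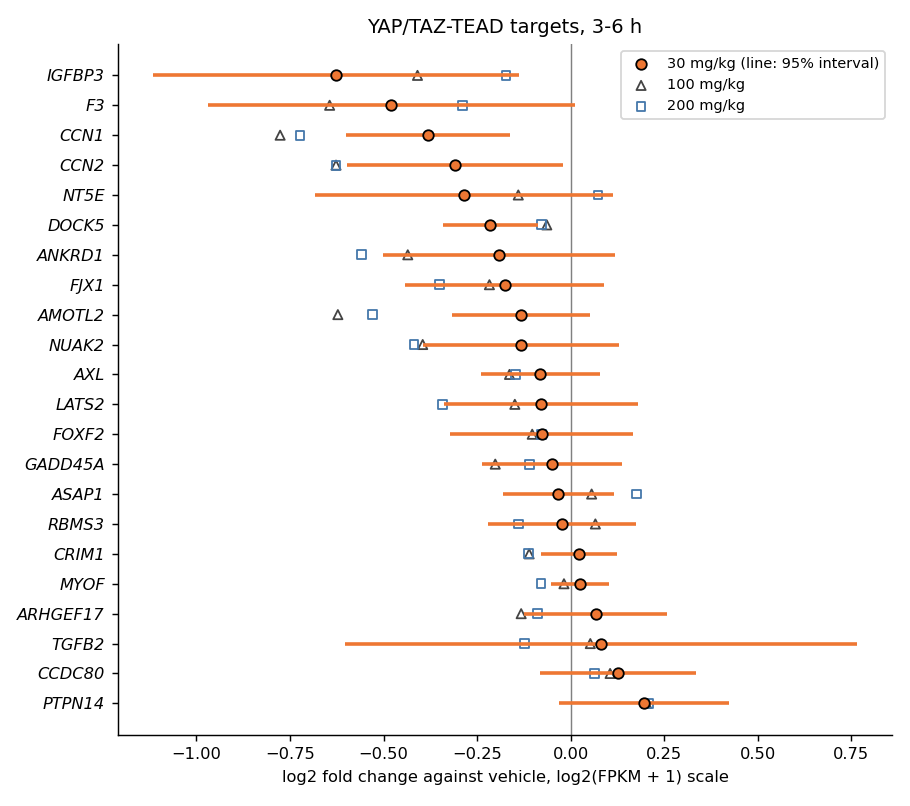
Log2 fold change against vehicle of the 22 YAP/TAZ-TEAD targets (x axis, log2(FPKM + 1) scale, 1 gene per row). Filled circles with 95% intervals are 30 mg/kg, and open triangles and squares are 100 and 200 mg/kg against the same vehicle tumors. At 30 mg/kg CCN1 lies at -0.38 and AMOTL2 at -0.13, and at 100 mg/kg they lie at -0.78 and -0.62.

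None of the factors that K-975 binds, nor any of their co-activators, was called. TEAD1 was the most abundant per length, at 106 to 159 FPKM with vehicle and 122 to 160 at 30 mg/kg, followed by TEAD4 at 31.5 to 48.8 and 29.7 to 51.6 FPKM. The log2 fold changes were 0.03 (-0.10 to 0.17) for TEAD1, -0.17 (-0.46 to 0.13) for TEAD2, 0.02 (-0.18 to 0.21) for TEAD3 and 0.03 (-0.16 to 0.22) for TEAD4. YAP1 ranged from 63.4 to 91.4 FPKM with vehicle and from 63.6 to 77.0 at 30 mg/kg, with a log2 fold change of -0.05 (-0.17 to 0.06). WWTR1, the less abundant co-activator at 8.83 to 16.3 FPKM with vehicle, gave 0.20 (-0.10 to 0.50). Of the vestigial-like cofactors, which bind the same face of TEAD as YAP1, VGLL3 (141 to 172 FPKM with vehicle) gave -0.11 (-0.24 to 0.03) and VGLL4 0.00 (-0.19 to 0.18). VGLL1 was listed at 0 in all 20 tumors, and VGLL2 did not pass the filter on low values.

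Of the 22 Hippo kinases and scaffolds listed, 21 were tested, 12 were below 0, and the median was -0.05. FRMD6, a FERM-domain protein upstream of the kinases, had an unadjusted p of 0.0442. It ranged from 39.6 to 63.1 FPKM with vehicle (median 51.7) and from 40.3 to 50.1 at 30 mg/kg (median 42.9), with a log2 fold change of -0.20 (-0.39 to -0.01) and a limma adjusted p of 0.715. The vehicle cage groups differed, with FRMD6 at 40.7 to 54.3 FPKM in cage group 2 and at 39.6, 59.1, 59.7, 60.4 and 63.1 in cage group 3. Untreated tumors had 35.8 to 53.9 FPKM, and cage groups 8 and 9 had 40.7 to 50.1 and 40.3 to 45.5. The kinases STK3 (0.04), STK4 (-0.18), LATS1 (0.10) and LATS2 (-0.08) did not pass the test in either direction. AJUBA, a LIM protein that restrains LATS, gave -0.08 (-0.23 to 0.07).

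The study's readout of TEAD-dependent transcription is the deR score. Here it was computed as the mean rank of positive effectors (genes that YAP1-TEAD activity raises) minus that of negative effectors, with ranks taken among the effectors of 1 tumor and scaled from 0 to 1. Of 249 positive and 233 negative effectors 248 and 232 were found. The score ranged from 0.185 to 0.235 with vehicle (median 0.209) and from 0.182 to 0.225 at 30 mg/kg (median 0.208). The mean was 0.208 ± 0.0121 at 30 mg/kg and 0.212 ± 0.0150 with vehicle (SD, n = 10 each), a difference of -0.00373 that was smaller than the spread between tumors (two-sided permutation test with 100000 resamples, p = 0.544). Both cage groups at 30 mg/kg had nearly the same mean, 0.208 ± 0.00518 and 0.207 ± 0.0174 (SD, n = 5 each). Per gene, 110 of 236 positive effectors and 87 of 187 negative effectors past the filter were below 0, with a median of 0.01 for both.

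**Figure D3:**
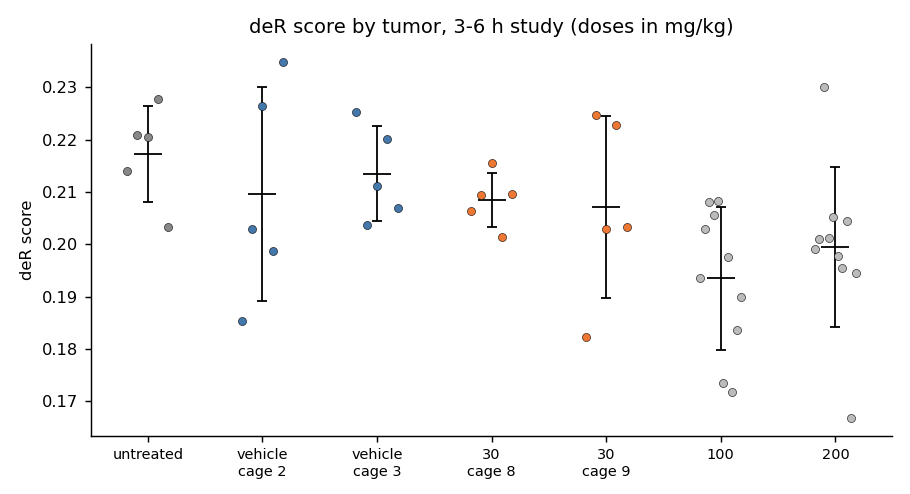
deR score (y axis, unitless) of every tumor of the 3-6 h study by group (x axis), 1 point per tumor, with bars for mean ± SD. The 30 mg/kg tumors span 0.182 to 0.225 and the vehicle tumors 0.185 to 0.235.

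The higher doses were set beside 30 mg/kg to see which targets the dose separated. Comparisons with vehicle at the 3 doses share the same 10 vehicle tumors. For CCN1 the log2 fold changes against vehicle at 30, 100 and 200 mg/kg were -0.38, -0.78 and -0.72, and for CCN2 they were -0.31, -0.63 and -0.63. For AMOTL2 they were -0.13, -0.62 and -0.53, and for AJUBA -0.08, -0.36 and -0.37. In all, 33 genes (0.263%) were called at 100 mg/kg against vehicle and 9 (0.0718%) at 200 mg/kg. CCN1 and AMOTL2 were called at both higher doses, and so was AJUBA, with limma adjusted p-values of 0.0132 and 0.0351. CCN2 was called at 100 mg/kg (adjusted p = 0.0341) and not at 200 mg/kg (adjusted p = 0.0861).

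Tested directly, 2 of 12528 genes (0.016%) differed between 100 and 30 mg/kg, both lower at 100 mg/kg. AMOTL2 ranged from 13.6 to 22.5 FPKM at 100 mg/kg (median 19.2) and from 20.6 to 35.8 at 30 mg/kg (median 24.9), so the ranges overlapped only between 20.6 and 22.5 FPKM. The log2 difference was -0.49 (-0.67 to -0.30, limma adjusted p = 0.0281). ESRP2, an epithelial splicing factor, ranged from 5.37 to 13.1 FPKM at 100 mg/kg (median 7.21) and from 9.46 to 14.7 at 30 mg/kg (median 11.3), with a log2 difference of -0.49 (-0.68 to -0.31, adjusted p = 0.0281). Against vehicle (8.07 to 14.0 FPKM) ESRP2 at 30 mg/kg gave 0.14 (-0.05 to 0.33). Neither difference was called when the fit held only these 2 groups (adjusted p = 0.0999 for AMOTL2 and 0.203 for ESRP2), and leaving out single tumors ended the call in 12 of 20 fits for AMOTL2 and 11 of 20 for ESRP2. For AMOTL2 these were 100 mg/kg replicates 1, 3, 4, 5, 6, 7 and 10 and 30 mg/kg replicates 3, 5, 7, 8 and 9, and the adjusted p over the 20 fits was 0.0159 to 0.116. For ESRP2 they were 100 mg/kg replicates 1, 3, 5, 6, 7 and 8 and the same 30 mg/kg replicates, with an adjusted p of 0.00417 to 0.116. CCN1 gave a log2 difference of -0.40 (-0.62 to -0.18) between 100 and 30 mg/kg that did not pass the threshold (adjusted p = 0.318). Both called genes were lower in cage group 7 than in cage group 6 at 100 mg/kg. AMOTL2 ran from 19.2 to 22.5 FPKM in cage group 6 and from 13.6 to 19.1 in cage group 7. For ESRP2 the ranges were 6.36 to 13.1 and 5.37 to 7.45 FPKM.

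Between 200 and 30 mg/kg no gene was called (0% of 12528), with 894 genes at an unadjusted p under 0.05 and a lowest limma adjusted p of 0.319. These doses were given in different volumes, unlike 100 and 30 mg/kg, so that dose and dosing volume cannot be told apart here. The log2 difference was -0.34 (-0.56 to -0.12) for CCN1, -0.40 (-0.58 to -0.21) for AMOTL2 and -0.32 (-0.61 to -0.03) for CCN2. The deR score at 100 mg/kg averaged 0.193 ± 0.0136, lower than at 30 mg/kg by 0.0143 (two-sided permutation test, p = 0.0244, 0.0731 after adjustment over the 6 additional score comparisons made). The test pooled both cage groups of each dose. At 100 mg/kg the score ran from 0.194 to 0.208 in cage group 6 and from 0.172 to 0.198 in cage group 7. At 200 mg/kg the score averaged 0.200 ± 0.0153 (permutation p = 0.203, adjusted 0.243).

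The 1 gene called at 30 mg/kg was ST20-MTHFS (chr15:79845150-79923754, minus strand), a read-through gene that joins exons of ST20 to exons of MTHFS, an enzyme of folate metabolism. It ranged from 0.352 to 7.99 FPKM in vehicle tumors (median 2.99), with 9 of 10 at 1 FPKM or more. At 30 mg/kg it did not exceed 0.611 FPKM, and 7 of 10 tumors were below 0.01. The log2 fold change was -1.86 (-2.51 to -1.22, adjusted p = 0.00911 in limma) and -4.25 with a pseudocount of 0.1 FPKM in place of 1. All 10 treated tumors lay below the vehicle median and 8 below the lowest vehicle tumor. At 100 and 200 mg/kg, against the same vehicle tumors, it was -1.64 (called, adjusted p = 0.00861) and -0.78 (not called). The call at 30 mg/kg held in all 20 fits that left out 1 tumor. It was lost against the untreated tumors (9.07e-05 to 4.25 FPKM, log2 fold change -0.91, adjusted p = 1.00). It was also lost with cage group 8 alone (-1.98, adjusted p = 0.114), cage group 9 alone (-1.75, adjusted p = 0.150) and vehicle cage group 2 alone (-1.56, adjusted p = 0.732), where the fold change stayed near that against all vehicle tumors.

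ST20-MTHFS overlaps both ST20 and MTHFS, and how fragments were assigned to overlapping genes is not given in the sources used here, so its level is reported as uncertain. Neither neighbour was called: ST20 ranged from 1.39 to 9.52 FPKM with vehicle and from 3.14 to 9.72 at 30 mg/kg (log2 fold change 0.02, -0.55 to 0.60), and MTHFS from 7.92 to 17.2 and from 12.4 to 26.4 (0.30, 0.0049 to 0.59). Values below 0.01 FPKM were not particular to 30 mg/kg. They were found in 7 of 10 tumors at 100 mg/kg, in 3 of 10 at 200 mg/kg, in 4 of 5 vehicle tumors of the 1 h study and in 4 of 4 vehicle tumors of the 24 h study. At 30 mg/kg they were found in 2 of 5 tumors of the 1 h study and 5 of 5 of the 24 h study. Replicate 1 of these 24 h tumors had only 702 genes at 1 FPKM or more.

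**Figure D4:**
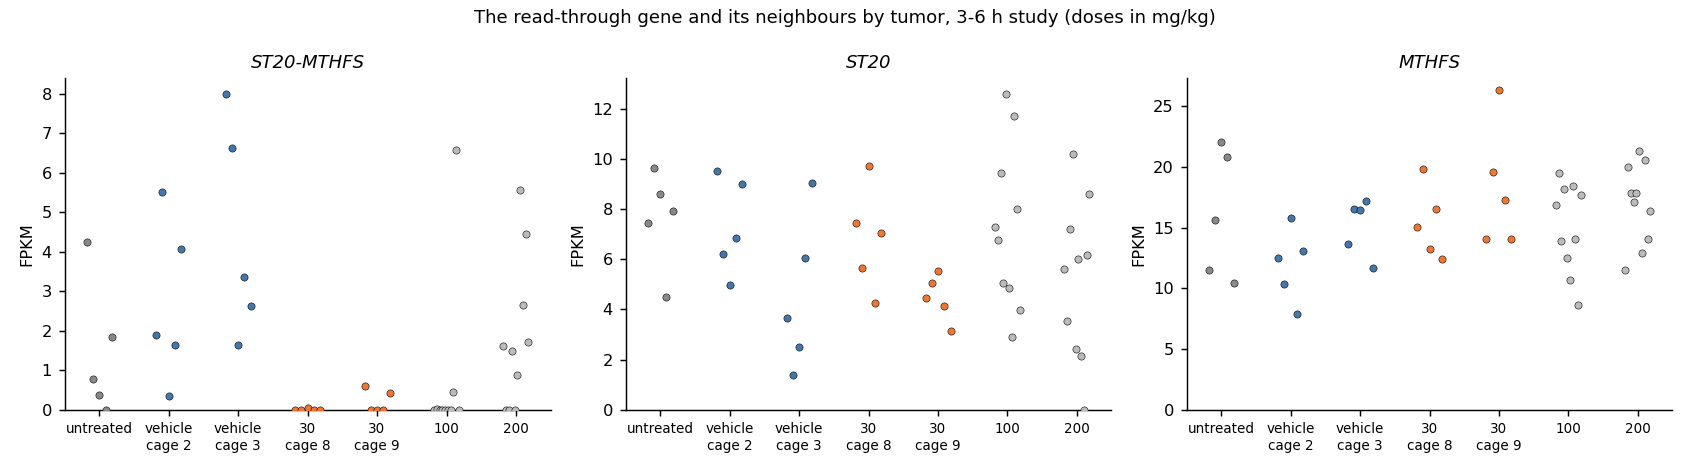
FPKM (y axis, from 0) of ST20-MTHFS, ST20 and MTHFS in every tumor of the 3-6 h study by group (x axis, vehicle and 30 mg/kg split by cage group), 1 point per tumor. ST20-MTHFS is between 0.352 and 7.99 FPKM in vehicle tumors and no higher than 0.611 at 30 mg/kg, while ST20 and MTHFS overlap between the groups.

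Among genes that did not pass the threshold, the lowest unadjusted p-values on the higher side belonged to LAMTOR1, H2AC6, RGS3, WNT9A, DNAAF5, SDSL, PDGFA, RIN1, MRPL11 and ERAL1, with limma adjusted p-values of 0.301 or more. For each of these, all 10 tumors at 30 mg/kg lay at or above the vehicle median. The genes were picked by their p in this same comparison, so this separation goes with the choice and adds no support. LAMTOR1, a subunit of the Ragulator complex that anchors mTORC1 to lysosomes, ranged from 11.9 to 21.9 FPKM with vehicle (median 14.8) and from 17.8 to 26.1 at 30 mg/kg (median 20.8), with a log2 fold change of 0.46 (0.25 to 0.67) and 0.46 in each cage group. Against the untreated tumors LAMTOR1 gave 0.04. RGS3, which speeds GTP hydrolysis by G proteins, ranged from 16.03 to 39.8 FPKM with vehicle and from 28.1 to 42.1 at 30 mg/kg (0.45, 0.24 to 0.67), and gave 0.07 against the untreated tumors. PDGFA, a growth factor for mesenchymal cells, gave 0.31 (0.15 to 0.46) and 0.23 against the untreated tumors.

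On the lower side, the names were ERGIC1, EYA4, SLC15A4, CCN1, HS1BP3, RBM34, RNASEK, UBE2K and MYO15A, together with ST20-MTHFS. ERGIC1, which cycles between endoplasmic reticulum and Golgi, ranged from 933 to 1242 FPKM with vehicle and from 758 to 1103 at 30 mg/kg, with a log2 fold change of -0.19 (-0.28 to -0.10). EYA4, a transcriptional co-activator and phosphatase, was low throughout, at 0.251 to 2.96 FPKM with vehicle and 0 to 0.672 at 30 mg/kg, and gave -0.71 (-1.08 to -0.34, adjusted p = 0.400 in limma). Against the untreated tumors ERGIC1 gave -0.11 and EYA4 -0.14.

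The vehicle cage groups themselves differed. In vehicle cage group 3 against vehicle cage group 2, 6 genes (0.0479%) were called, all higher: FNIP1 (0.46), FBXO32 (1.77), MAFF (1.54), FNDC3B (0.44), PFKFB4 (1.52) and HKDC1 (1.12). PFKFB4, which makes the activator of phosphofructokinase, averaged 4.98 ± 2.29 FPKM in vehicle cage group 2 and 15.2 ± 1.89 in vehicle cage group 3, beside 6.71 ± 2.04 in untreated tumors, 6.88 ± 1.94 in cage group 8 and 8.28 ± 4.56 in cage group 9 (SD, n = 5 each). The untreated and the treated cage groups lay closer to vehicle cage group 2 in the level of this gene. Whether the vehicle cage groups differed in time point cannot be read from the labels, and its part in these results was not tested.

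Several gene lists turned direction with the choice of vehicle cage group. Of 15 hypoxia and glycolysis genes, 14 had a fold change below 0 against all vehicle tumors (median log2 fold change -0.23), but 15 against vehicle cage group 3 alone (median -0.62) and 3 against vehicle cage group 2 alone (median 0.14). Against the untreated tumors 6 were below 0 (median 0.02). PGK1, a glycolytic kinase and the list's only member with an unadjusted p under 0.05, averaged 117 ± 17.6 FPKM in vehicle cage group 2, 167 ± 32.4 in vehicle cage group 3, 116 ± 9.78 in cage group 8 and 117 ± 20.6 in cage group 9. Of 13 inflammatory cytokines 10 were below 0 against all vehicle tumors (median -0.22), 13 against vehicle cage group 3 (median -0.75), 2 against vehicle cage group 2 (median 0.23) and 8 against the untreated tumors (median -0.13). The treated cage groups also went apart for the cytokines, with 5 of 13 below 0 in cage group 8 (median 0.15) and 13 of 13 in cage group 9 (median -0.60), each against all vehicle tumors. Of 14 interferon response genes 12 were below 0 against all vehicle tumors (median -0.07) and 1 against vehicle cage group 2 (median 0.10). No member of these lists was called against all vehicle tumors.

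**Figure D5:**
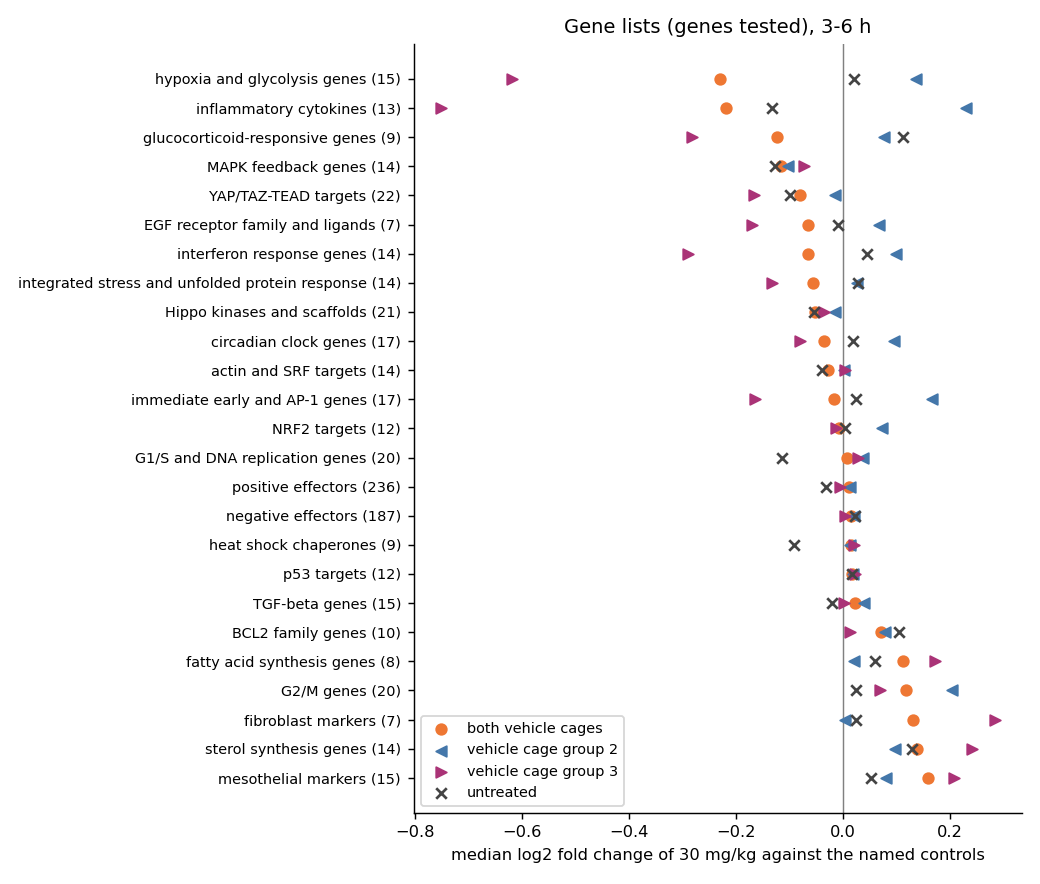
Median log2 fold change of 30 mg/kg (x axis) for each gene list (y axis, number of genes tested in brackets) against all vehicle tumors, against each vehicle cage group and against the untreated tumors. Hypoxia and glycolysis genes lie at -0.62 against vehicle cage group 3 and at 0.14 against vehicle cage group 2.

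Mesothelial markers leaned to the higher side without a call. Of 15 markers 1 was below 0 (median 0.16), with 4 at an unadjusted p under 0.05, and their median was 0.08 against vehicle cage group 2, 0.21 against vehicle cage group 3 and 0.05 against the untreated tumors. CALB2 (calretinin) ranged from 466 to 715 FPKM with vehicle (median 614) and from 618 to 819 at 30 mg/kg (median 702), and no treated tumor was below the vehicle median (log2 fold change 0.19, 0.06 to 0.32, limma adjusted p = 0.522). In cage group 8 CALB2 was at 618 to 710 FPKM and in cage group 9 at 694 to 819. In vehicle cage group 2 it was at 595 to 712 FPKM and in the untreated tumors at 587 to 775. WT1, a transcription factor used to identify mesothelioma, had a log2 fold change of 0.25 (0.11 to 0.39), made up of 0.03 in cage group 8 and 0.48 in cage group 9. It averaged 27.9 ± 3.62 FPKM in cage group 8 and 38.2 ± 2.64 in cage group 9, beside 29.7 ± 2.40 and 25.1 ± 3.799 in vehicle cage groups 2 and 3 (SD, n = 5 each). In bulk tumors a change in the number of cells of a type and a change in RNA per cell cannot be told apart.

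Genes of sterol and fatty acid synthesis and of mitosis also leaned to the higher side against all vehicle tumors without a call, and more so in cage group 9 than in cage group 8. Of 14 sterol genes 1 was below 0 (median 0.14), and the medians against vehicle cage groups 2 and 3 and against untreated tumors were 0.10, 0.24 and 0.13. In cage group 8 against all vehicle tumors 5 of 14 were below 0 (median 0.03), and in cage group 9 none was (median 0.23). HMGCS1, an early enzyme of the pathway with the highest fold change of the list, ranged from 32.6 to 99.0 FPKM with vehicle (median 75.1) and from 68.8 to 134 at 30 mg/kg (median 87.5), with a log2 fold change of 0.36 (0.08 to 0.63, limma adjusted p = 0.572). HMGCS1 was at 68.8 to 89.7 FPKM in cage group 8 and 75.4 to 134 in cage group 9. Vehicle cage groups 2 and 3 had 55.4 to 99.0 and 32.6 to 89.9 FPKM, and the untreated tumors 59.8 to 103. The log2 fold change of HMGCS1 was 0.02 at 100 mg/kg and -0.05 at 200 mg/kg against the same vehicle tumors. None of 8 fatty acid synthesis genes was below 0 (median 0.11), but 4 of 8 were against vehicle cage group 2 (median 0.02), and 3 of 8 were in cage group 8 (median 0.03) beside none in cage group 9 (median 0.19). None of 20 G2/M genes was below 0 (median 0.12), with a median of 0.20 against vehicle cage group 2, 0.07 against vehicle cage group 3 and 0.02 against untreated tumors, and of 0.05 in cage group 8 and 0.20 in cage group 9 against all vehicle tumors. MKI67, the proliferation marker Ki-67, gave 0.15, and NEK2, a centrosomal kinase, 0.47 (0.08 to 0.86, adjusted p = 0.633). NEK2 was near the lower limit of the filter, at 0.336 to 2.46 FPKM with vehicle and 0.835 to 2.45 at 30 mg/kg. In the untreated tumors NEK2 was at 0.746 to 2.53 FPKM.

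MAPK feedback genes, which are induced by ERK and dampen it, leaned to the lower side against each control. Of 14 members 13 were below 0 (median -0.12), 10 were below 0 against either vehicle cage group, and 12 against the untreated tumors (median -0.13), yet none had an unadjusted p under 0.05. At 100 and 200 mg/kg 6 and 7 of the 14 were below 0 against the same vehicle tumors. Of 4 metallothioneins, which bind zinc and copper, 4 were below 0 against vehicle (median -0.23) and 0 against untreated tumors (median 0.27).

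The lists of immediate early, clock, glucocorticoid, NRF2, chaperone, unfolded protein, SRF, TGF-beta, EGF receptor, G1/S, p53 and BCL2 family genes had medians between -0.12 and 0.07, and none had more than 2 members at an unadjusted p under 0.05 in either direction. Some medians turned sign between vehicle cage groups 2 and 3. They were 0.17 and -0.16 for immediate early, 0.08 and -0.28 for glucocorticoid and 0.10 and -0.08 for clock genes. For unfolded protein, EGF receptor and NRF2 genes they were 0.03 and -0.13, 0.07 and -0.17, and 0.07 and -0.01. The other lists kept their sign. IER2, an immediate early gene, ranged from 19.0 to 28.7 FPKM with vehicle (median 23.6) and from 22.1 to 37.2 at 30 mg/kg (median 29.3), with a log2 fold change of 0.29 (0.11 to 0.48, limma adjusted p = 0.498). In the untreated tumors IER2 ranged from 22.3 to 30.5 FPKM, with the same median of 29.3 as at 30 mg/kg. MYC gave -0.12 (-0.23 to -0.0012) and the receptor EGFR -0.13 (-0.23 to -0.02), each with 9 of 10 treated tumors below the vehicle median. EGFR was at 191 to 235 FPKM at 30 mg/kg and 204 to 236 in the untreated tumors. In vehicle cage groups 2 and 3 EGFR was at 201 to 243 and 216 to 274 FPKM. MYC was at 42.9 to 53.9 FPKM at 30 mg/kg and 52.4 to 62.3 in the untreated tumors. The p53 targets CDKN1A, a cyclin-dependent kinase inhibitor, and BBC3, a pro-apoptotic BCL2 family member, gave 0.20 (0.03 to 0.37) and 0.26 (0.04 to 0.49).

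Markers of other cells stood beside these values. The host cells of these xenografts are mouse cells, and the treatment of mouse reads is not given in the sources used here. Whether the marker values come from tumor or host cells was not tested, so the sums do not measure host cell content. The summed leukocyte markers (10 genes) were 46.5 to 269 FPKM with vehicle and 45.8 to 135 at 30 mg/kg, nearly all of it CD68, a lysosomal protein. The summed endothelial markers (8 genes) were 52.8 to 104 and 51.2 to 120 FPKM, mostly KDR, and the summed fibroblast markers (9 genes) 744 to 1125 and 829 to 1296 FPKM, mostly COL1A1, COL3A1 and THY1, with COL1A2 at 0 throughout. In each list 1 member had an unadjusted p under 0.05 and none was called in limma. CD68 averaged 131 FPKM with vehicle and 93.4 at 30 mg/kg (log2 fold change -0.41, adjusted p = 0.715), CDH5, the endothelial cadherin, 0.930 and 1.56 FPKM (0.39, adjusted p = 0.639), and DCN (decorin) did not exceed 1.64 FPKM with vehicle and 4.27 at 30 mg/kg (0.86, adjusted p = 0.701). Their part in the results was not tested.

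The 30 mg/kg cage groups did not differ from each other by a called gene (0% of 12528), with 774 genes at an unadjusted p under 0.05 and a lowest limma adjusted p of 0.246. When the fit held only these cage groups, LOX, MMP1 and MMP3 were called, all lower in cage group 9. Set singly against all vehicle tumors, cage group 8 gave no call (620 genes at an unadjusted p under 0.05), and cage group 9 gave 2 calls (0.016%), WT1 (0.48, adjusted p = 0.0159) and ERGIC1 (-0.30, adjusted p = 0.0235). Cage group 9 against vehicle cage group 3 gave 14 calls (0.112%), 9 lower and 5 higher, IGFBP3 among the lower (-1.56, -2.26 to -0.87, adjusted p = 0.0416) and WT1 (0.60) and LRRN4 (0.66), both mesothelial markers, among the higher. The other 3 pairings of a treated with a vehicle cage group gave none. Against the untreated tumors 30 mg/kg gave no call (0% of 12528), with 449 genes at an unadjusted p under 0.05.

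The effect of 30 mg/kg at 3-6 h was then set against that at 24 h and at 1 h, each against its own vehicle tumors, in a fit to the 91 libraries of all studies that were not shallow. This left 4 tumors at 30 mg/kg against 4 with vehicle at 24 h, and 5 against 5 at 1 h. At 24 h 5 genes (0.0388%) were called against vehicle, CARNS1 (1.28), GYG2 (1.45), PIGZ (0.66) and CTTN (0.28) higher and NOPCHAP1 (-1.62) lower, and none of these was called at 3-6 h. The difference between the 3-6 h and 24 h effects passed the threshold for none of 12892 genes (0%), with 851 genes at an unadjusted p under 0.05 in limma, which does not show that the effects were alike. For CCN1 the effect was -0.33 (-0.75 to 0.09) at 24 h and -0.07 (-0.44 to 0.31) at 1 h, and the difference from 3-6 h was -0.05 (-0.55 to 0.44) and -0.31 (-0.77 to 0.15). For CCN2 the effect was -0.47 (-0.91 to -0.03) at 24 h and 0.09 (-0.30 to 0.48) at 1 h, with differences of 0.16 (-0.36 to 0.68) and -0.40 (-0.88 to 0.08). Between 3-6 h and 1 h 2 genes (0.0155%) differed, ST20-MTHFS by -3.02 (-4.16 to -1.88) and GNPDA2, a glucosamine-6-phosphate deaminase, by 1.41 (0.864 to 1.962), both with a limma adjusted p of 0.0137. At 1 h ST20-MTHFS had the higher median at 30 mg/kg, 1.56 FPKM against 9.02e-04 with vehicle, the reverse of 3-6 h. Its 1 h values were below 0.01 FPKM in 4 of 5 vehicle tumors and 2 of 5 at 30 mg/kg. Study and time cannot be told apart in these differences.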

How the data were processed

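RNA of xenograft tumors was enriched with capture probes and sequenced paired-end. The authors deposited 1 table of FPKM values for 94 libraries. The submitters' processing notes name STAR and GRCh38, and the quantifier and the treatment of mouse reads are not given in the sources used here. The unit was read from the form of the values. Of 20555 entries 316 that repeated 284 gene identifiers were left out, which kept 20239 genes, and 32 blank cells were read as 0. Genes at 1 FPKM or more in at least 5 of 45 libraries of the 3-6 h study were tested with limma 3.58.1 (R 4.3.3) on log2(FPKM + 1), with 1 coefficient per cage group, a trended robust prior, Benjamini-Hochberg adjustment and a threshold of 0.05. The fit across studies used 91 libraries, without 3 that had fewer than 10000 genes at 1 FPKM. Scores were tested with scipy 1.17.1 by permutation. The fits were tested on simulated data. Counts of fragments were not used, so depth was judged from genes detected and from the size of the lowest values. Capture probes may set levels.

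The comparison, gene lists and tests were chosen with earlier results of these data known. Named genes were all members of the TEAD, cofactor, target and Hippo lists, every called gene, the 10 lowest unadjusted p-values in each direction, up to 4 members of each other list with an unadjusted p under 0.05, and the 5 lowest adjusted p-values in each direction between doses and cage groups. Genes named outside this rule (the calls between vehicle cage groups, in single cage groups, at 24 h and between times, ST20, MTHFS, MSLN, MKI67 and the markers of other cells) were chosen after their values were seen. Some genes that the rule names are not reported here. Alternatives were another pseudocount (0.1), other filters, scalings, sample sets, controls and cage groups, and leaving out each tumor. The 4 pairs of single cage groups were added after seeing the data.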

Additional observations from a re-analysis of the deposited data

Results flagged for a closer look

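Of 214 sets of values (a named gene in 1 group) 9 held a tumor whose distance from the rest was above the 95% limit of Dixon's test, which chance alone gives in about 1 of 20 sets. With vehicle these were TEAD2 in replicate 10 (23.5 FPKM), FJX1 in replicate 3 (1.99), HMGCS1 in replicate 7 (32.6), WT1 in replicate 7 (18.8), RIN1 in replicate 1 (24.3) and ESRP2 in replicate 2 (14.0). At 30 mg/kg they were CCN1 in replicate 9 (193 FPKM), SAV1 in replicate 2 (4.36) and BAD in replicate 3 (17.6).

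A difference between doses was called for ESRP2 (-0.49) and AMOTL2 (-0.49), lower at 100 than at 30 mg/kg on the log2 scale. A difference between the 3-6 h and 1 h effects of 30 mg/kg was called for GNPDA2 (1.41) and ST20-MTHFS (-3.02). Against vehicle GNPDA2 gave 0.43 at 3-6 h and -0.99 at 1 h, and neither was called. For ST20-MTHFS the medians with vehicle and at 30 mg/kg were 2.99 and 1.07e-04 FPKM at 3-6 h, and 9.02e-04 and 1.56 FPKM at 1 h.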

How the results depend on the processing

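The count of 1 called gene at 30 mg/kg was the same under another pseudocount, other filters, quantile and median-of-ratios scaling, array weights, 1 coefficient per dose, only the groups compared and all 94 libraries. It was 2 over all studies without shallow libraries (LAMTOR1 added), 2 with cage group 9 alone, 16 with vehicle cage group 3 alone, and 0 with the untreated control, cage group 8 alone or vehicle cage group 2 alone. The pairings added after seeing the data gave 14 for cage group 9 against vehicle cage group 3 and 0 for the others. Leaving out single tumors gave 1 to 2, the 2 (LAMTOR1 added) without vehicle replicate 1. Between 100 and 30 mg/kg the count was 0 with only those groups, with all 94 libraries and with array weights, and 0 to 3 on leaving out single tumors. Between cage groups 9 and 8 it was 3 with only those groups (LOX, MMP1 and MMP3, all lower in cage group 9). Between 3-6 h and 1 h it was 1 with all 94 libraries. The deR difference stayed negative and short of the threshold under every alternative run.

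Of 106 named genes the sign of the 30 mg/kg effect turned in 24 with the untreated control, 19 with vehicle cage group 2 alone, 8 with vehicle cage group 3 alone, 6 and 7 with cage group 8 or 9 alone and 1 under median-of-ratios scaling. Those that moved beyond their interval were, with the untreated control, DCN (-0.29), FNDC3B (0.0459), E2F1 (-0.0689), KRT18 (-0.0580), YAP1 (0.14), TAGLN (-0.0023), THBD (-0.0136), FJX1 (0.0909), MT1F (0.27) and FNIP1 (0.0934). With vehicle cage group 2 alone they were FNDC3B (0.0261), PFKFB4 (0.50) and FNIP1 (0.16), and with cage group 8 alone ASAP1 (0.14). The cause was not tested. No paired analysis was possible because the replicate numbers of the groups only number the tumors and pair no animals.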
